A study of Rattus norvegicus with 6 samples.

Results

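Skeletal muscle transcripts were found at raised levels in 2 of 6 rat dorsal root ganglion libraries, sham replicate 3 and pSNL replicate 3. The genes described here were chosen by their level in CPM, a gene's expected count divided by the total of its library and multiplied by 1000000. A gene was taken where it reached at least 5 CPM in both of these libraries and where the lower of these values was at least 5 times the highest CPM of the other 4 libraries, with values under 0.2 CPM raised to 0.2 for the ratio. This rule gave 15 of the 14346 genes listed in at least 1 library, or 0.105%. Because these values chose the genes, the height of replicate 3 over the other libraries is a description and was not tested.

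RNA sequencing was done on dorsal root ganglia, which hold the cell bodies of sensory neurons, 7 days after surgery. The sham group (3 libraries) had a sham operation, and the pSNL group (3 libraries) had a partial sciatic nerve ligation, a model of neuropathic pain in which some of the nerve's fibres are tied off. The labels name no strain, sex, age, ganglion level or number of animals per library, so the spread behind each p-value is that of libraries and may be technical in part. The libraries held 4310643 to 4416121 expected counts, so 1 CPM stands for 4.31 to 4.42 counts.

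As background, a skeletal muscle fibre is filled with sarcomeres, in which thick filaments of myosin pull on thin filaments of actin that are anchored at the Z-disc. Calcium released from the sarcoplasmic reticulum binds troponin on the thin filament and lets myosin act, and a pump returns it to the store. Fast fibres and slow fibres use different genes for many of these proteins, and fast fibres lean on creatine phosphate and glycogen for quick energy. A sensory ganglion has no skeletal muscle fibres of its own.

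The 3 markers given for skeletal muscle, Ckm, Acta1 and Tnnt3, are all among the 15 genes. Markers and gene lists were chosen with earlier results of these data known, so membership in them is a description and no independent check. Each of the 15 is in at least 1 of 8 lists of skeletal muscle genes, and 10 are in the list of fast fibre genes and 1, Mybpc1, in that of slow fibre genes. Together they made up 845 CPM in sham replicate 3 and 1513 CPM in pSNL replicate 3, which is 0.0845% and 0.151% of those libraries. In the other 4 libraries their sum was 30.0 CPM in sham replicate 1, 21.8 CPM in sham replicate 2, 25.2 CPM in pSNL replicate 1 and 24.9 CPM in pSNL replicate 2. In whole tissue a smaller number of cells of a type and less RNA per cell cannot be told apart.

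**Figure D1:**
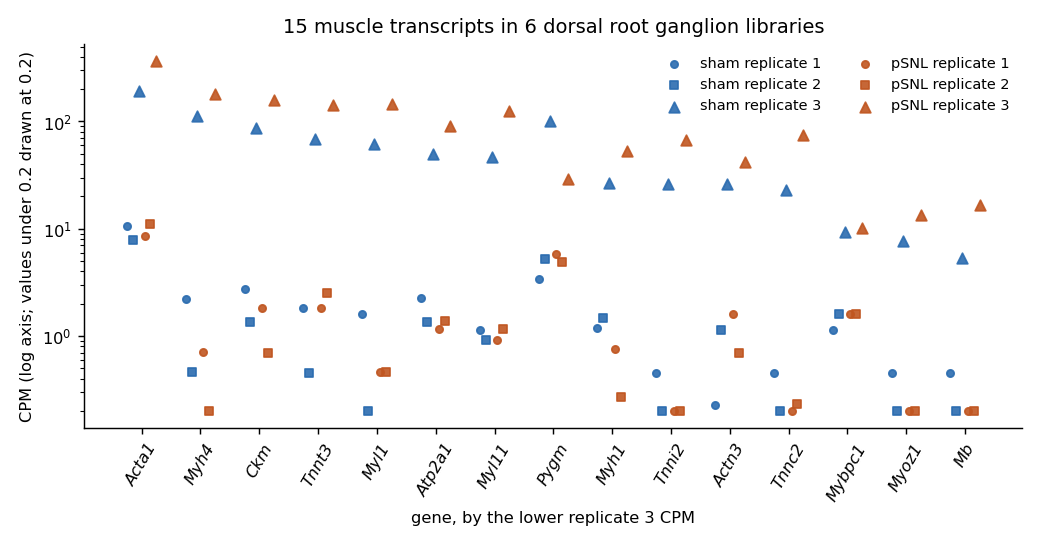
Level of the 15 genes in each library, in CPM on a log axis, ordered by the lower of the replicate 3 values; circles are replicate 1, squares replicate 2 and triangles replicate 3, with sham in blue and pSNL in orange. The triangles stand above the other libraries for each gene, as the rule required, and Pygm is the gene whose sham triangle (101 CPM) stands above its pSNL triangle (29.2 CPM).

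The thin filament gave 4 of the genes. Acta1 (gene ID 29437), the actin of skeletal muscle, was at 10.5, 7.83 and 194 CPM in sham replicates 1 to 3 and at 8.51, 11.1 and 363 CPM in pSNL replicates 1 to 3. Per length it had the highest level of the 15 in both replicate 3 libraries, with 128 and 240 FPKM (the per-length value in the files, which scales fragments by gene length and library size), and 5.18 to 7.32 FPKM in the others. Tnnt3 (gene ID 24838), the fast troponin T that ties the troponin complex to tropomyosin, was at 1.81, 0.454 and 69.1 CPM in sham replicates 1 to 3 and at 1.84, 2.53 and 143 CPM in pSNL replicates 1 to 3. Tnni2 (gene ID 29389), the fast inhibitory troponin, had 26.2 CPM in sham replicate 3 and 66.8 CPM in pSNL replicate 3, against 0.453 CPM in sham replicate 1 and 0 in the other three libraries. Tnnc2 (gene ID 296369), the fast troponin that binds calcium, had 23.0 and 75.4 CPM in the replicate 3 libraries of sham and pSNL and at most 0.453 CPM elsewhere. All 3 subunits of the fast troponin complex were thus selected.

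The thick filament gave 5 genes. Myh4 (gene ID 360543), the myosin heavy chain of the fastest fibres of rodents, was at 2.21, 0.463 and 113 CPM in sham replicates 1 to 3 and at 0.715, 0 and 180 CPM in pSNL replicates 1 to 3. Myh1 (gene ID 287408), another fast heavy chain, had 26.7 and 52.5 CPM in the replicate 3 libraries and 0.272 to 1.45 CPM in the others. The essential light chain Myl1 (gene ID 56781) was at 1.59, 0 and 61.0 CPM in sham replicates 1 to 3 and at 0.46, 0.461 and 147 CPM in pSNL replicates 1 to 3. Like the heavy chains, it was highest in pSNL replicate 3. The regulatory light chain Myl11 (gene ID 24584, also called Mylpf) was at 1.13, 0.908 and 46.4 CPM in sham and at 0.92, 1.15 and 125 CPM in pSNL, in the order of the replicates. Mybpc1 (gene ID 362867), the slow myosin binding protein C, was at 1.13, 1.59 and 9.28 CPM in sham and at 1.61, 1.61 and 10.2 CPM in pSNL, in the same order. Its replicate 3 values are nearly level, unlike those of the other thick filament genes.

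At the Z-disc, Actn3 (gene ID 171009), the actinin of fast fibres, was at 0.227, 1.13 and 26.0 CPM in sham replicates 1 to 3 and at 1.61, 0.691 and 42.1 CPM in pSNL replicates 1 to 3. Myoz1 (gene ID 498440), a Z-disc protein that binds calcineurin, had 7.66 and 13.4 CPM in the replicate 3 libraries, 0.453 CPM in sham replicate 1 and 0 in the other three. Of the genes of calcium handling 1 was selected. Atp2a1 (gene ID 116601), the calcium pump of the fast fibre sarcoplasmic reticulum, was at 2.27, 1.36 and 49.4 CPM in sham replicates 1 to 3 and at 1.15, 1.38 and 90.1 CPM in pSNL replicates 1 to 3.

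Energy supply gave 3 further genes. Ckm (gene ID 24265), the muscle creatine kinase that rebuilds ATP from creatine phosphate, was at 2.72, 1.36 and 86.3 CPM in sham replicates 1 to 3 and at 1.84, 0.691 and 159 CPM in pSNL replicates 1 to 3. Mb (gene ID 59108), the oxygen store myoglobin that is most abundant in oxidative fibres, had 5.34 and 16.5 CPM in the replicate 3 libraries and 0.453 CPM or less in the others. Pygm (gene ID 24701), the muscle form of glycogen phosphorylase, which is also made in the brain, was at 3.41, 5.23 and 101 CPM in sham replicates 1 to 3 and at 5.75, 4.84 and 29.2 CPM in pSNL replicates 1 to 3. Of the 15 genes it alone was lower in pSNL replicate 3 than in sham replicate 3. All 9 genes of the central glia list, which holds markers of astrocytes and oligodendrocytes, were highest in sham replicate 3, with a summed level of 2011 CPM there, 63.0 CPM in pSNL replicate 3 and 38.5 to 72.6 CPM in the other 4. Among them, Gfap was at 547 CPM in sham replicate 3 and Aqp4 at 460 CPM, against 38.3 and 1.54 CPM in pSNL replicate 3. Olig1 was listed at 0 in pSNL replicate 3 and had 129 CPM in sham replicate 3. The part of the glial signal in the Pygm level of sham replicate 3 was not tested.

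The 250 bases before the annotated start are given for 3 of the genes selected as high in both replicate 3 libraries. These are an actin, the creatine kinase and a myosin gene. The sequences were read from RefSeq on build GRCr8 and are written 5′ to 3′ along the gene. Capitals mark matches on either strand. In all 3 sequences they mark the E-box CAGCTG, which myogenic factors such as MyoD can bind. In Acta1 and Myh4 they also mark TATAAA and the CArG box of serum response factor, and in Myh4 the consensus of MEF2. Acta1 lies on the minus strand (chr19:68784195-68784444), Ckm on the plus strand (chr1:88189211-88189460) and Myh4 on the plus strand (chr10:52421898-52422147).
Acta1: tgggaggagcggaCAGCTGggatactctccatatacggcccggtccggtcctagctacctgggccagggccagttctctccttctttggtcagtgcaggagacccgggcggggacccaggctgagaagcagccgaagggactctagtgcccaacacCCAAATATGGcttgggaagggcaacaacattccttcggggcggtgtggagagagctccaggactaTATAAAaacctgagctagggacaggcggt
Ckm: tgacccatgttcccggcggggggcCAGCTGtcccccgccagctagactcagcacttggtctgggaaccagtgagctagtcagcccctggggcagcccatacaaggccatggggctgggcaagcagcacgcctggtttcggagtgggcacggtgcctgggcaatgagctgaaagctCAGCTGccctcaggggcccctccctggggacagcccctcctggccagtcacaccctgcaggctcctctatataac
Myh4: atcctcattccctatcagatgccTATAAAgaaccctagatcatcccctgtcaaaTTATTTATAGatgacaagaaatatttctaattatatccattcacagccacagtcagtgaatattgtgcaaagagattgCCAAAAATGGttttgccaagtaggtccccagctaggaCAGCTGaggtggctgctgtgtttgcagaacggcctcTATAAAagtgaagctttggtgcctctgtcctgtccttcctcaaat

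The Acta1 window holds a CArG box from base 94 to base 85 before the start, an E-box from base 237 to base 232 and a TATAAA from base 29 to base 24. In the Ckm window 2 E-boxes were found, which begin 226 and 75 bases before the start. The Myh4 window holds a MEF2 match from base 196 to base 187, which overlaps a TATAAA on the other strand, a CArG box from base 118 to base 109, an E-box from base 81 to base 76 and further TATAAA matches that begin 227 and 45 bases before the start. Windows from 250 before to 50 after a start, were found for 14 of the 15 genes, with 15 windows in all. CAGCTG was in the windows of 7 of the 14 genes and in 15.1% of all 33469 windows of the table, and TATAAA in those of 7 genes and 14.2%. The MEF2 consensus was in the windows of 4 genes (Myh1, Myh4, Myl1 and Myoz1) and in 3.29% of all windows, and the CArG box in those of 2 (Acta1 and Myh4) and 1.64%. A match is a description of the letters and not a site shown to be bound, and these shares were not tested.

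Most of the fast fibre genes stood out beside their slow partners. Levels of different genes are compared as FPKM. The fast troponin I gene Tnni2 was at 40.0 FPKM in sham replicate 3 and 102 FPKM in pSNL replicate 3, while its slow partner Tnni1 was at 1.16 and 4.52 FPKM, so the level of the fast gene was 34.5 and 22.5 times that of the slow one. Tnnt3 stood at 66.2 and 137 FPKM beside the slow Tnnt1 at 2.01 and 1.78 FPKM. Myl11 stood at 72.7 and 195 FPKM beside the slow regulatory light chain Myl2 at 1.77 and 4.85 FPKM. In these 3 pairs the slow gene was at a small share of the fast gene in both libraries. Tnnc2 was 6.65 and 10.8 times its partner Tnnc1 in FPKM. Tnnc1 did not separate the libraries, with 3.48 CPM in sham replicate 3 and 5.30 CPM in the highest of the other 4. The difference was small for myosin binding protein C, where the fast Mybpc2 was 1.47 and 3.18 times the slow Mybpc1. Of that pair the slow gene was the selected one. The calcium pump pair went the other way. Atp2a2, which neurons and glia also use, was at 79.7 and 55.7 FPKM beside Atp2a1 at 14.2 and 25.8 FPKM. The level of Atp2a2 in the other 4 libraries was 63.6 to 74.8 FPKM.

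**Figure D2:**
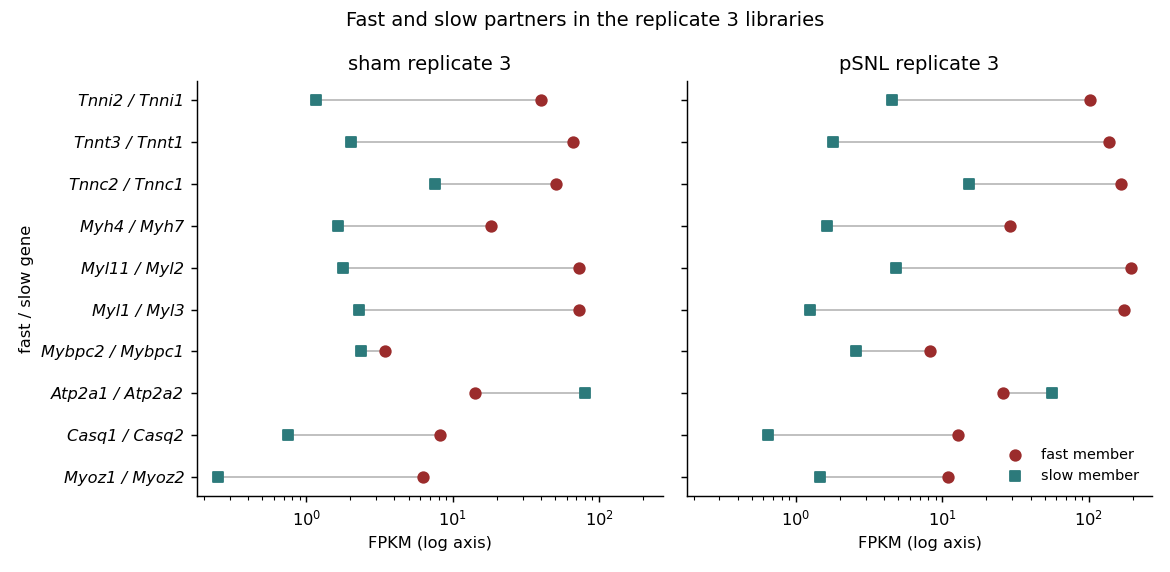
FPKM (log axis) of fast (red circles) and slow (green squares) partner genes in sham replicate 3 and in pSNL replicate 3; a grey line joins the partners. The fast gene lies to the right in both libraries in each pair but the calcium pumps, where Atp2a2 (79.7 and 55.7 FPKM) exceeds Atp2a1 (14.2 and 25.8 FPKM).

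Among the adult myosin heavy chains, Myh4 held 73.7% of the summed FPKM of Myh4, Myh1, Myh2 and Myh7 in sham replicate 3 and 73.0% in pSNL replicate 3. Myh1 held 17.5% and 21.6%, the slow Myh7 6.63% and 4.07%, and Myh2, the heavy chain of fast oxidative fibres, 2.13% and 1.33%. The order Myh4, Myh1, Myh7, Myh2 was the same in both libraries. Myh2 was at 3.26 and 3.25 CPM in the replicate 3 libraries and at 0 to 0.84 CPM in the others, and Myh7 at 9.90 and 9.75 CPM against 1.27 to 4.45 CPM. The embryonic Myh3 was at 0.68 CPM in sham replicate 3 and 1.70 CPM in pSNL replicate 3, and the perinatal Myh8 at 5.73 and 10.7 CPM. Both developmental genes lay within or close to the range of the other 4 libraries, which was 0.71 to 2.47 CPM for Myh3 and 3.82 to 10.5 CPM for Myh8. Myh2, Myh1 and Myh4 follow one another in the RefSeq annotation with 0 protein-coding genes between neighbours. They are close paralogs, and their estimated counts were not whole in most files, so the split of reads between them is uncertain. The same holds for Acta1, which is close to other actins, and for Pygm, whose counts were whole in 0 of 6 files.

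Summed over the fast fibre list, 15 genes were at 678 CPM in sham replicate 3 and 1204 CPM in pSNL replicate 3, against 157 to 239 CPM in the others. Most of the level outside replicate 3 was Pvalb, a calcium buffer that large sensory neurons also make, at 194, 229 and 196 CPM in sham replicates 1 to 3 and 188, 145 and 210 CPM in pSNL replicates 1 to 3. Without Pvalb, left out after its values were seen, the fast list was at 482 and 994 CPM in the replicate 3 libraries and 10.7 to 17.0 CPM in the others. Of these 14 genes 10 were chosen by the rule, so this gap follows in large part from the choice. The slow fibre list, with 12 listed genes, was at 611 and 468 CPM in the replicate 3 libraries and 495 to 558 CPM in the others, so it did not separate them. Without Atp2a2 and Tpm3, also left out after their values were seen, it was at 30.8 and 39.6 CPM against 8.52 to 15.5 CPM. In FPKM the gap was smaller, with 19.8 and 34.2 against 9.39 to 15.7. The slow list holds 1 gene chosen by the rule, so the fast and slow sums are not a like comparison.

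The replicate 3 libraries differed from each other in the amount of these transcripts, whose summed CPM in pSNL replicate 3 was 1.79 times that in sham replicate 3, and in the shares of single genes. For 14 of the 15 genes the level was higher in pSNL replicate 3. Of the 9587 genes with at least 5 CPM in both libraries, 45% were higher there, and their median ratio of pSNL replicate 3 to sham replicate 3 was 0.976. The ratio over the 15 genes had a median of 1.87. It was lowest for Pygm, at 0.289 (exact 95% counting interval 0.235 to 0.352), and ran from 1.10 for Mybpc1 (0.701 to 1.73) to 3.28 for Tnnc2 (2.62 to 4.15) among the others. The interval lay above 1 for 13 genes, below 1 for Pygm and on both sides of 1 for Mybpc1. With 1 library on each side these intervals cover counting error only and give no test of pSNL against sham.

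Acta1 made up 23.0% of the summed CPM of the 15 genes in sham replicate 3 and 24.0% in pSNL replicate 3. Ckm made up 10.2% and 10.5%, and Atp2a1 5.85% and 5.96%. These 3 shares were close in both libraries, but others moved. The share of Tnnc2 was 2.72% in sham replicate 3 and 4.99% in pSNL replicate 3, that of Myl11 5.49% and 8.23%, that of Tnni2 3.10% and 4.42% and that of Mb 0.632% and 1.09%. Shares that were lower in pSNL replicate 3 included those of Mybpc1, at 1.10% and 0.674%, and Pygm, at 12.0% and 1.93%. Across the genes the log2 CPM values of both libraries had a Pearson correlation of 0.847 (n = 15 genes), and of 0.962 without Pygm (n = 14 genes). The genes share their libraries and were chosen for being high in both. In FPKM, Acta1 was 2.08 times Ckm in sham replicate 3 and 2.11 times in pSNL replicate 3, but 3.60 to 14.9 times in the other 4 libraries, where Ckm rested on 3 to 12 counts. Other genes did not keep their level relative to Ckm. Tnnc2 was 0.818 and 1.46 times Ckm in the replicate 3 libraries of sham and pSNL, Myl11 1.18 and 1.72 times and Pygm 0.57 and 0.0893 times.

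Shorter transcripts tended to have higher ratios. The 4 genes with a listed length under 1000 bases (Tnnc2, Myl11, Tnni2 and Myl1) had ratios of 2.41 to 3.28 with a median of 2.62, and the 4 of 3000 bases or more (Atp2a1, Mybpc1, Myh1 and Myh4) had ratios of 1.10 to 1.97 with a median of 1.71. The 6 genes of 1000 to 3000 bases, again without Pygm, had ratios of 1.62 to 3.10 with a median of 1.86. The shortest and the longest class do not overlap, and the middle class overlaps both. Spearman's rho between length and ratio was -0.833 over 14 genes, leaving out Pygm, and -0.796 over all 15. Among the 9572 other genes of at least 5 CPM in both libraries, rho was -0.108. Their median ratio was 1.04 under 1000 bases and 0.953 at 3000 bases or more. Length was looked at after the ratios were seen, and its part in the ratios was not tested.

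**Figure D3:**
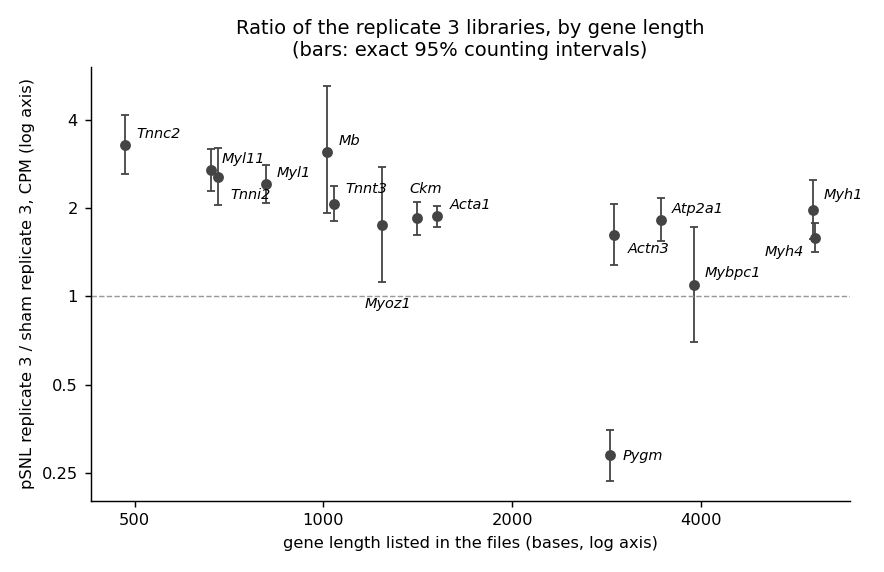
Ratio of CPM in pSNL replicate 3 to CPM in sham replicate 3 (log axis) against the gene length listed in the files (bases, log axis), with exact 95% counting intervals as bars and a dashed line at 1. The ratios of the genes under 1000 bases lie at 2.41 to 3.28 and those of genes of 3000 bases or more at 1.10 to 1.97; Pygm, at 0.289, is the point below the line.

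Muscle genes that the rule did not take were also compared with the other libraries. Of 163 genes in the 8 skeletal muscle lists 135 were listed in at least 1 library, of which 15 were selected. Of the 120 others, 43 (35.8%) were higher in both replicate 3 libraries than in each of the other 4, where 6.88% of all 14346 genes were. This is the contrast that the rule used, and the lists were chosen with results known, so the count is a description. For 24 of the 120 the lower replicate 3 value was at least 2 times the highest of the others. By list, 7 of 11 unselected thick filament genes, 5 of 10 thin filament genes, 6 of 15 Z-disc genes, 7 of 19 calcium genes and 8 of 22 energy genes lay above, but 4 of 17 genes of the membrane and nerve-muscle synapse, 4 of 14 genes of turnover and stress and 2 of 12 myogenic regulators.

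Several of these genes came close to the limits. Tcap, which caps titin at the Z-disc, was at 0.68, 0.681 and 9.05 CPM in sham replicates 1 to 3 and at 1.61, 1.84 and 24.0 CPM in pSNL replicates 1 to 3, a ratio of 4.91. Casq1, the calcium store protein of fast fibres, reached 15.3 and 23.8 CPM against at most 3.17 CPM (ratio 4.83), and Mybpc2, the fast myosin binding protein C, 12.8 and 30.3 CPM against at most 3.69 CPM (ratio 3.46). The selected genes nearest to that limit were Pygm (5.08) and Mybpc1 (5.75), and the next was Mb, well inside it (11.8). Below 5 CPM but past the ratio were Sgca, a sarcoglycan of the muscle membrane, with 6.50 and 3.85 CPM, and Cox6a2, a muscle subunit of cytochrome oxidase, with 3.71 and 7.02 CPM. Hjv (hemojuvelin), which is in none of the muscle lists, was also past the ratio, with 3.14 and 4.50 CPM. The selected genes nearest to the minimum level were Mb (5.34 CPM), Myoz1 (7.66 CPM) and Mybpc1 (9.28 CPM).

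Des, the intermediate filament of muscle, was at 7.71, 4.77 and 19.5 CPM in sham and 7.36, 7.60 and 22.0 CPM in pSNL. The glycolytic enzyme genes Eno3 and Pgam2, which are most active in muscle, reached 28.3 and 15.1 CPM in sham replicate 3 and 55.9 and 30.1 CPM in pSNL replicate 3, above highest values of 10.9 and 4.83 CPM elsewhere. By contrast the glycolytic gene Aldoa (1741 to 2148 CPM over all 6 libraries) and Ldha (531 to 662 CPM), which most cells use, did not separate the libraries. Of the myogenic regulators, Myod1, Myog and Myf6, which drive muscle formation, were at 0 or 0.23 CPM in each library. Chrna1, a subunit of the muscle acetylcholine receptor, was at 41.5, 21.8 and 23.7 CPM in sham and 28.6, 32.8 and 54.1 CPM in pSNL, so sham replicate 3 lay inside the range of the others.

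**Figure D4:**
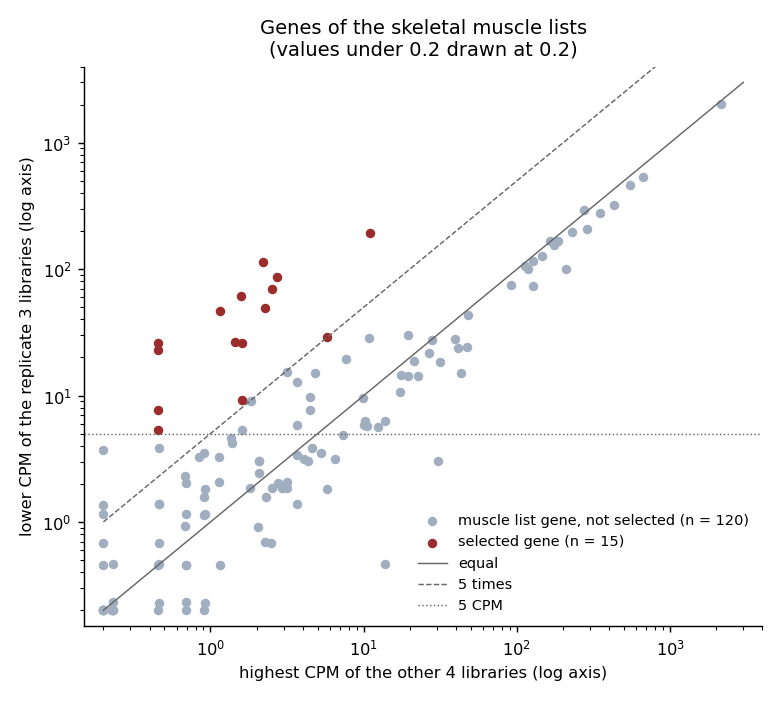
Lower CPM of the replicate 3 libraries against the highest CPM of the other 4 for the 135 listed genes of the skeletal muscle lists, both on log axes, with selected genes in red and the others in grey. The 15 selected genes lie above the dashed line at 5 times and the dotted line at 5 CPM, and the abundant genes on the right, such as Aldoa, lie near the line of equality.

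For some genes named for muscle the level followed surgery in place of the replicate number. Csrp3, a Z-disc protein, was at 0, 1.36 and 3.02 CPM in sham replicates 1 to 3 and at 16.6, 30.4 and 31.5 CPM in pSNL replicates 1 to 3, and Ankrd1, a stress-induced ankyrin repeat protein, was at 0.46 CPM or less in sham and at 4.60 to 13.8 CPM in pSNL.

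The comparison of pSNL with sham, which asks what nerve injury changes in the ganglion, called none of these genes. In edgeR's quasi-likelihood test 0.46% of the 11091 genes tested passed an adjusted p of 0.05 (51 genes). Of the 15 genes, 4 passed the filter on low counts, which asks for enough counts in at least 3 libraries, and 0 of these 4 passed the test, with 0 at an unadjusted p under 0.05. The values that chose the genes put 1 high library in each group, and nothing about injury is read from this count. The SE given here was calculated back from the test, as the size of the change divided by the square root of its F statistic. On the log2 scale the edgeR fold change of pSNL over sham, with this SE, was 0.88 ± 2.06 for Acta1 (adjusted p = 0.887), 0.87 ± 2.29 for Ckm (adjusted p = 0.90) and 1.08 ± 2.25 for Tnnt3 (adjusted p = 0.868). Pygm had -1.44 ± 1.65 (edgeR adjusted p = 0.74). For each of the 4 the groups overlapped and the SE exceeded the change, which for this SE means that F was below 1.

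Without a filter on low counts all 15 could be tested, and 0 passed in edgeR's test, where 0.621% of 14333 genes did. In that fit 14 of the 15 had a positive log2 fold change, from 0.18 for Mybpc1 to 1.72 for Tnnc2, with a median over the 15 of 0.88, beside a median of -0.01 over all genes. The direction rested on the replicate 3 libraries. Leaving out pSNL replicate 3 turned the log2 fold change of Ckm to -4.55 and leaving out sham replicate 3 raised it to 4.71, and neither passed the edgeR test (adjusted p = 0.563 and 0.626). With both replicate 3 libraries left out, 2 of the 15 genes passed the filter, Acta1 with a log2 fold change of 0.07 and Pygm with 0.27 (edgeR adjusted p = 0.928 and 0.749).

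Markers of other tissues were read in the same libraries. Pan-neuronal genes were abundant in all 6, at 26737 CPM in sham replicate 3, 28584 CPM in pSNL replicate 3 and 27551 to 31290 CPM in the others, as in a sensory ganglion. Of the cardiac list, Tnni3 and Tnnt2, which define heart muscle, were at 0.23 CPM in sham replicate 3 and at 1.59 and 0.23 CPM in pSNL replicate 3, and the list sum of 128 and 102 CPM was close to the 107 to 125 CPM of the others. The smooth muscle list was at 240 CPM in sham replicate 3, above the 151 to 199 CPM of the other 4, and at 186 CPM in pSNL replicate 3. Tendon genes were at 40.6 and 70.5 CPM against 44.3 to 81.8 CPM, and cartilage and bone genes at 350 and 627 CPM against 460 to 574 CPM. Adipocyte genes summed to 9.51 and 11.5 CPM, within the 2.27 to 14.5 CPM of the others. Of these genes, Adipoq was at 1.16 CPM in sham replicate 3 and at 0 in each other library. None of these 5 sums lay above the other 4 libraries in both replicate 3 libraries. The satellite glia list was at 1283 CPM in sham replicate 3, 542 CPM in pSNL replicate 3 and 533 to 596 CPM in the others. Its genes did not move together in sham replicate 3. Glul (958 CPM), Gja1 (241 CPM) and Fabp7 (52.2 CPM) were highest there. Kcnj10 (9.05 CPM) lay within the range of the other libraries, and Cdh19 (23.2 CPM) was at its lowest. The sum is therefore not read as a level of satellite glia. The erythroid list was at 8356, 6182 and 1349 to 6535 CPM, in the same order. In pSNL replicate 3 the Schwann cell list was highest, at 30578 CPM against 21097 CPM in sham replicate 3 and 17407 to 23699 CPM in the others.

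**Figure D5:**
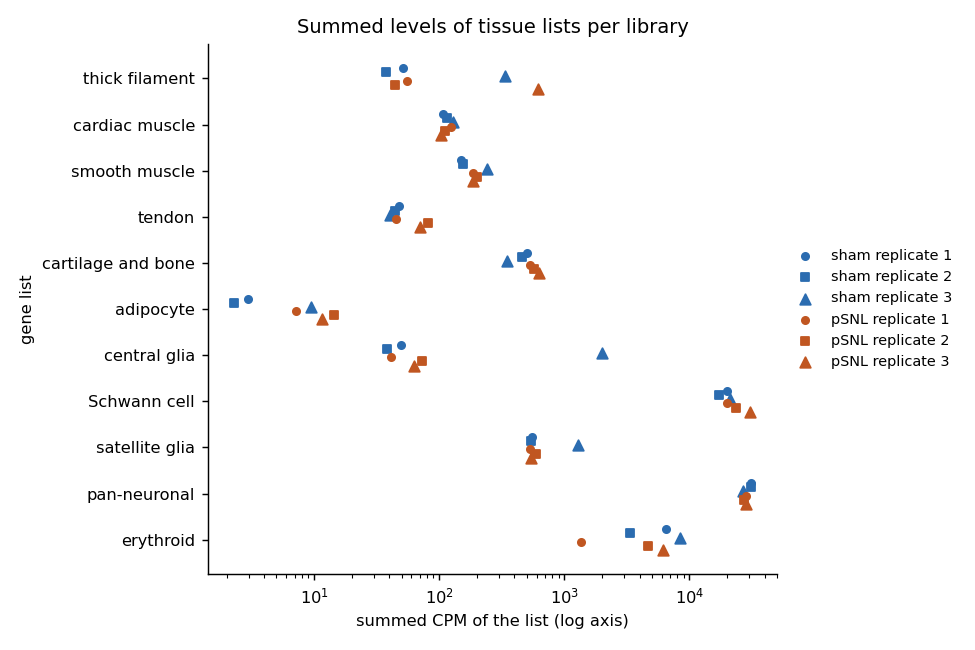
Summed CPM (log axis) of the thick filament list and of lists of other tissues in each library; triangles are the replicate 3 libraries, sham in blue and pSNL in orange. Both triangles stand apart to the right for the thick filament list (336 and 612 CPM against 37.6 to 55.5 CPM), and for central glia the sham triangle alone does (2011 CPM). Of the 16 listed thick filament genes 5 were chosen by the rule, and 0 of the genes of each other list. The place of the thick filament list therefore follows in large part from the choice and is not a like comparison.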

How the data were processed

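Expected counts and FPKM values per gene were taken from the authors' files, 1 per library, in units per the file headers; genes missing from a library's file were set to 0. The authors deposited expected counts, which need not be whole, and FPKM per listed length. CASAVA 1.4 and Bowtie2 appear in the submitters' processing notes; quantifier, build, annotation and strand: not given in the sources used here. Symbols came from RefSeq (GRCr8): 14227 identifiers matched by gene ID and 6 by transcript, and 113 were kept as IDs.

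Counts were rounded and pSNL was compared with sham by edgeR 4.0.16 in R 4.3.3 (TMM, default filter, robust quasi-likelihood fit, Benjamini-Hochberg). DESeq2 1.42.0 was an alternative. Ratios of single libraries carry exact 95% counting intervals (scipy 1.17.1), which cover counting error only. On simulated counts the fit called 82% of genes changed 2-fold and 100% of those changed 4-fold, with 10 false calls among 11160 genes. These shares describe the simulated counts only. They do not give the power for genes that are high in only part of a group, as the selected genes are. Without sham replicate 3, Ckm had a log2 fold change of 4.71 with an SE of 3.43. It did not pass the edgeR test (adjusted p = 0.626). Up to 6 selected and 4 unselected genes per list were named by replicate 3 level, with fibre type genes and the 3 genes nearest each limit; Eno3, Pgam2, Csrp3, Ankrd1, Myod1, Myog, Myf6, markers of other tissues, the pairs of fast and slow genes and the motifs were chosen after values were seen. The members and lists were chosen with earlier results of these data known.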

Additional observations from a re-analysis of the deposited data

How the results depend on the processing

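The count of genes called between pSNL and sham (51 in the edgeR fit) was 332 with DESeq2, 89 without a filter on low counts, 111 with the replicate number as a replicate block, 102 without both replicate 3 libraries, and 5 to 217 with 1 library left out (21, 5 and 33 without sham replicate 1, 2 and 3, and 217, 9 and 96 without pSNL replicate 1, 2 and 3); the cause was not tested. These calls were among 11091 to 14333 tested genes. None of the 15 genes passed under any of these settings, but not all 15 were tested in each. All 15 were tested without the filter and without replicate 1 or 2 of either group. With 1 library left out the filter asks for enough counts in only 2 libraries, which the replicate 3 libraries can meet alone. Those fits still hold 1 high library in each group, as the rule set, and nothing about injury is read from them. Only 4 were tested in the main fit, under the block and without either replicate 3 library. Without both replicate 3 libraries 2 were tested, and DESeq2 gave an adjusted p for 2. Of the 4 tested under the block, 2 had an unadjusted p under 0.05. Deviations from the group means of libraries with the same number correlated at 0.0318, 0.0107 and 0.123, so the numbers were not taken as pairs, and only the replicate 3 libraries correlated best with their own number. With 1 library left out, the log2 fold change ran from -4.55 to 4.71 for Ckm, -2.85 to 3.80 for Acta1, -3.43 to 5.41 for Tnnt3 and -2.79 to 1.61 for Pygm, and it was 0.27 for Pygm without both replicate 3 libraries. The rule gave 15 genes on TMM-scaled sizes, 21 at a minimum of 2 CPM, 12 at 10 CPM, 20 at a 3-fold and 13 at a 10-fold limit.

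In CPM, the lower replicate 3 sum over the highest other sum was 2.84 for the fast list and 0.838 for the slow list. In FPKM these were 1.70 and 0.984, where genes count by length. Leaving out Pvalb gave 28.4 in CPM and 32.9 in FPKM for the fast list. Leaving out Atp2a2 and Tpm3 gave 1.99 in CPM and 1.26 in FPKM for the slow list. Both were chosen after seeing the data. The fast list holds 10 genes chosen by the rule and the slow list 1, so these ratios follow in part from the choice. A depth of about 4.3 counts per CPM limits genes of a few CPM.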
